A study of Bos taurus with 18 samples.

Results

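The muscle miRNAs (myomiRs) are a small set of miRNAs made almost entirely in striated muscle. They were chosen here by name and not by their values, though earlier results of these data were known. The set holds *bta-miR-1*, *bta-miR-133a*, *bta-miR-133b*, *bta-miR-206*, *bta-miR-208a*, *bta-miR-208b* and *bta-miR-499*, which are 7 of the 1071 miRNAs listed in the tables. Small RNA-seq was performed on plasma of 3 Japanese Black steers, a beef breed fattened for a long period, at about 20, 25 and 30 months. All steers were raised under the same feeding system, and none was treated. Each of the 9 plasma samples gave an exosomal (EX) library, from RNA inside small vesicles, and a non-exosomal free circulating (FC) library, from the RNA outside them, both taken with a spin column kit. Thus, each fraction and age had 3 libraries, 1 per steer.

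MiRNAs are short RNAs that pair with mRNAs through a seed near their 5′ end, which lowers the translation and stability of the mRNA. In muscle, *miR-1* and *miR-206* favor differentiation of muscle precursor cells, and *miR-133* favors their proliferation. *miR-208a*, *miR-208b* and *miR-499* lie in introns of myosin heavy chain genes and act on the balance between fast and slow myosin. In plasma, these miRNAs are read as signs of RNA released by skeletal muscle or heart. Plasma has no muscle cells of its own, so the level of a myomiR in it does not name the muscle that released it.

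The mature sequences of all 7, from the deposited count table, are shown because the members fall into families that share a seed, and because near-identical members can share reads. The seed, bases 2 to 8, is in capitals and the rest is in lower case.
bta-miR-1: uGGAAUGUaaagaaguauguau
bta-miR-206: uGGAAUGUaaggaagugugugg
bta-miR-133a: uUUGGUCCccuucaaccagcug
bta-miR-133b: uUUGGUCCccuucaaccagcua
bta-miR-208a: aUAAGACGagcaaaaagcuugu
bta-miR-208b: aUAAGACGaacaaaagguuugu
bta-miR-499: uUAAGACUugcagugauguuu

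*bta-miR-1* and *bta-miR-206* shared the seed GGAAUGU and differed at 4 of 22 bases (A11G, A17G, A21G and U22G, with positions counted from 1 at the 5′ end and the base of *bta-miR-1* first). *bta-miR-133a* and *bta-miR-133b* shared the seed UUGGUCC and differed only at the last base (G22A, with the base of *bta-miR-133a* first), so a read without its last base fits both. *bta-miR-208a* and *bta-miR-208b* shared the seed UAAGACG and differed at 3 of 22 bases (G10A, A16G and C18U, with the base of *bta-miR-208a* first). The seed of *bta-miR-499*, UAAGACU, matched theirs in bases 2 to 7 only. No other miRNA in the tables had any of these 4 seeds.

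Reads that fit several miRNAs had been divided among them, and the counts of the members showed it. Of the libraries with a count, 12 of 14 had a count of *bta-miR-133b* that was not whole and 12 of 16 such a count of *bta-miR-133a*, against 0 of 17 for *bta-miR-499* and 1 of 16 for *bta-miR-208b*. The split between *bta-miR-133a* and *bta-miR-133b* is therefore uncertain, and their sum is given beside them. For *bta-miR-1* and *bta-miR-206*, 11 of 18 and 7 of 17 libraries had counts that were not whole.

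In the RefSeq gene table of cattle (ARS-UCD2.0, which is not the genome used for the reads), the hairpin of *bta-miR-208a* lay inside MYH6, the heart alpha myosin heavy chain gene. The hairpin of *bta-miR-208b* lay inside MYH7, the heart and slow muscle myosin gene, and that of *bta-miR-499* inside MYH7B. Each of the 2 hairpins of *bta-miR-1* lay within 50 kb of 1 of the 2 hairpins of *bta-miR-133a*, and the hairpin of *bta-miR-206* within 50 kb of that of *bta-miR-133b*.

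A single library held 991354 to 2778618 counts in EX and 3615234 to 12088735 in FC. The libraries at 30 months were the shallower ones in FC (at most 4871908, against at least 6958135 at the younger ages), and in EX they held a count for 258 to 296 miRNAs against 381 to 446 at the younger ages. The CPM-normalized count (CPM) is the count of a miRNA divided by the counts of its library, scaled to 1000000. A floor of 3 counts stood for 1.08 to 3.03 CPM in the EX libraries, for 0.248 to 0.83 CPM in the FC libraries, and for counting error only. Few miRNAs of the EX libraries at 30 months had low counts at all: the 10th percentile of the counts above 3 was 33.2 to 55.4 there, against 8 to 15 in EX at the younger ages. In FC it was 14 to 21.3 at 30 months against 6 to 8 before. A 0 at 30 months, above all in EX, is therefore less certain than the floor of 3 counts says.

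Among the values of the 7 members in 18 libraries, 27 were under 3 counts, 21 of 63 in EX and 6 of 63 in FC, and 23 of them were 0. By age, 4 of 42 values were under 3 counts at 20 months, 8 at 25 months, then 15 at 30 months. In EX at 30 months it was 11 of 21 values, and the library of steer 2 there had counts for *bta-miR-1* only, 48 of them. *bta-miR-1* had 3 counts or more in all 18 libraries. In EX, the values under 3 counts were 8 of 9 for *bta-miR-208a*, 6 for *bta-miR-133b*, 3 for *bta-miR-208b*, 2 for *bta-miR-133a* and 1 each for *bta-miR-206* and *bta-miR-499*. In FC, they were 5 of 9 for *bta-miR-208a* and 1 for *bta-miR-133b*.

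**Figure D1:**
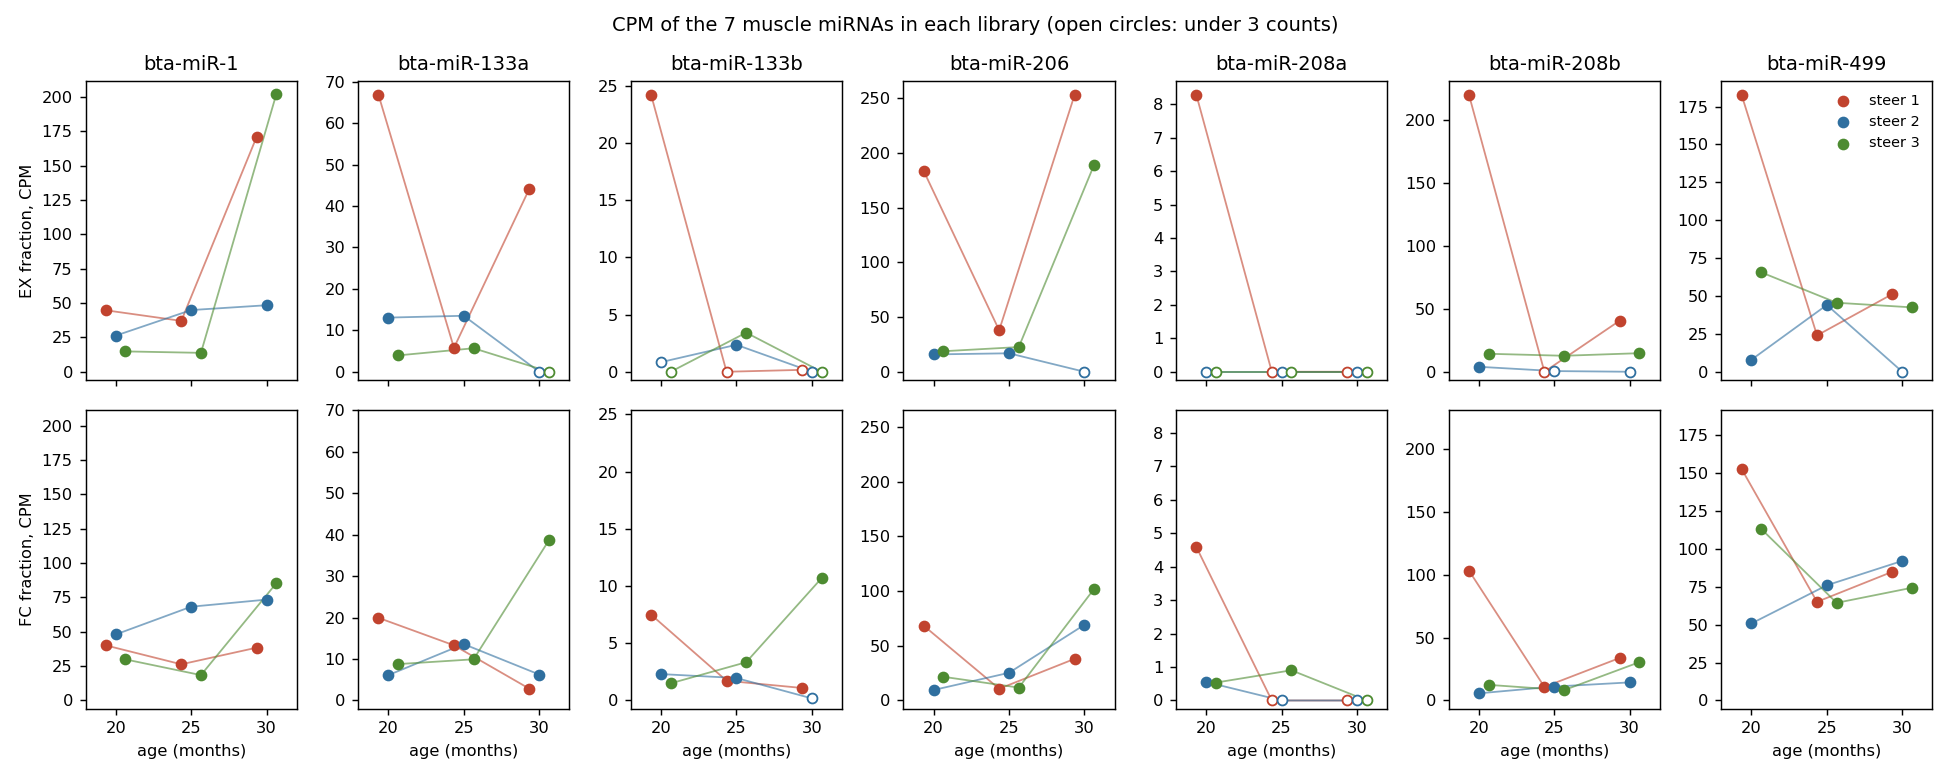
CPM of each muscle miRNA (columns) in each EX (top row) and FC (bottom row) library against age in months, 1 colour and line per steer, with open circles for values under 3 counts; points are set slightly apart by steer. Steer 1 at 20 months is the highest EX library for 5 of 7 miRNAs, and *bta-miR-208a* is at 0 in the other 8 EX libraries.

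The myomiRs were minor plasma miRNAs. Together they took 0.00484% to 0.073% of the counts of an EX library and 0.0117% to 0.0397% of an FC library. Ranked by mean CPM over 9 libraries, the most abundant was *bta-miR-206* in EX, in place 169 of the 591 miRNAs with a count (82.0 ± 97.4 CPM, SD, n = 9), and *bta-miR-499* in FC, in place 160 of 792 (85.99 ± 30.9 CPM, SD, n = 9). In EX, it was followed by *bta-miR-1* (67.0 ± 69.5), *bta-miR-499* (51.5 ± 53.5), *bta-miR-208b* (34.1 ± 71.0), *bta-miR-133a* (17.0 ± 23.1), *bta-miR-133b* (3.44 ± 7.88) and *bta-miR-208a* (0.92 ± 2.76). In FC, the order after *bta-miR-499* was *bta-miR-1* (47.6 ± 23.1), *bta-miR-206* (39.6 ± 32.9), *bta-miR-208b* (25.6 ± 30.7), *bta-miR-133a* (13.3 ± 10.8), *bta-miR-133b* (3.37 ± 3.45) and *bta-miR-208a* (0.732 ± 1.49). The EX mean of *bta-miR-206* rested on 3 libraries: by the median over 9 libraries, *bta-miR-1* (44.7 CPM) and *bta-miR-499* (44.1) lay above *bta-miR-206* (22.6) in EX, and *bta-miR-499* (76.0) stayed first in FC. Neighbors in the EX order differed by less than the larger of their SDs, and so did those in FC, except that *bta-miR-499* lay above *bta-miR-1* by more than either SD. The members are 21 or 22 bases long, so length plays little part in these orders, but capture differs between sequences in small RNA libraries.

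With the filter of the study, a CPM above 5 in 3 or more libraries of a fraction, 345 miRNAs were tested in EX, 358 in FC and 330 in both. Of the 7 members, *bta-miR-1*, *bta-miR-133a*, *bta-miR-206*, *bta-miR-208b* and *bta-miR-499* passed in each fraction. *bta-miR-133b* was above 5 CPM in 1 EX and 2 FC libraries, and *bta-miR-208a* in 1 EX library and 0 FC libraries, so these were not tested. DE-miRNAs were called at FDR < 0.05 and |log2 fold change| > 1 in a quasi-likelihood test of edgeR with the steer as a block, and FDR values below are from that test unless another is named.

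The values are given by family, starting with those of striated muscle in general. *bta-miR-1*, present in skeletal muscle and heart, had 44.7, 26.3 and 14.8 CPM in EX of steers 1, 2 and 3 at 20 months, 37.0, 44.9 and 13.7 at 25 months, then 171, 48.4 and 202 at 30 months. In FC it had 40.1, 48.0 and 29.9 CPM at 20 months, 26.3, 68.3 and 18.5 at 25 months, then 38.5, 73.4 and 85.4 at 30 months. All 3 steers had a higher value at 30 than at 25 months in both fractions, by a small margin in EX of steer 2 and by more than 4-fold in EX of steers 1 and 3.

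In EX, the 3 values of *bta-miR-1* at 30 months lay above all 6 values of the younger ages, whereas in FC the ages overlapped. Such a gap, all 3 libraries at 30 months above all 3 at 25 months, was seen for 18% of the 345 miRNAs tested in EX, and against 20 months for 17.7%. The gap was lost with TMM factors, where the value of steer 2 at 30 months became 39.0 CPM against 45.6 at 25 months. The log2 fold change of *bta-miR-1* in EX was 1.79 (SE 1.00, FDR = 0.268) from 25 to 30 months and 2.06 (SE 0.99, FDR = 0.21) from 20 to 30 months, and neither passed. Without the EX library of steer 3 at 30 months these values were 0.86 and 1.24, and without that of steer 2 at 30 months 2.53 and 2.84. The fold change from 20 to 30 months was called by DESeq2 only (log2 fold change 2.13, FDR = 0.0347), which called 22.6% of all 345, and its FDR ranged from 0.0347 to 0.576 over 21 alternatives.

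*bta-miR-133a* had 66.8, 13.1 and 3.95 CPM in EX of steers 1, 2 and 3 at 20 months, 5.78, 13.5 and 5.67 at 25 months, then 44.2, 0 and 0 at 30 months. Its FC values were 19.95, 6.12 and 8.78 CPM at 20 months, 13.3, 13.6 and 9.94 at 25 months, then 2.84, 6.27 and 38.7 at 30 months. Steer 1 held both high EX values, while the highest FC value was that of steer 3 at 30 months, 1.94-fold above the next, and the ages overlapped in both fractions. In the EX libraries of steers 2 and 3 at 30 months, the floor of 3 counts stood for 3.03 and 2.77 CPM, which is no firm upper limit for a 0 there, given how few low counts these libraries held.

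*bta-miR-133b*, the near-copy whose hairpin lies next to that of *bta-miR-206*, had 24.2 CPM in EX of steer 1 at 20 months, and at most 3.42 CPM in the other 8 EX libraries. In FC, the values were 7.50, 2.31 and 1.50 CPM at 20 months, 1.73, 1.96 and 3.34 at 25 months, then 1.09, 0.185 and 10.7 at 30 months. Steer 1 at 20 months was the highest EX library for both forms. The EX library of steer 1 at 30 months, high for *bta-miR-133a*, had only 0.33 counts of *bta-miR-133b* (0.166 CPM). In FC, both forms had their highest values in steer 3 at 30 months and steer 1 at 20 months, but values that rest on divided reads are not independent of each other. Where both had at least 3 counts, *bta-miR-133a* was 1.66 to 5.73 times as abundant in 3 EX libraries and 2.59 to 7.72 times in 8 FC libraries. Summed, the pair had 91.0, 13.9 and 3.95 CPM in EX at 20 months, 5.78 to 15.9 CPM at 25 months and 0 to 44.3 CPM at 30 months. In FC the sum was 8.42 to 27.5, 13.3 to 15.6 and 3.93 to 49.4 CPM at these ages, so that the ages overlapped in both fractions.

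*bta-miR-206*, made in skeletal muscle and nearly absent from heart, had 183, 15.8 and 18.7 CPM in EX of steers 1, 2 and 3 at 20 months, 37.9, 16.9 and 22.6 at 25 months, then 253, 0 and 189 at 30 months. The FC libraries held 68.3, 9.55 and 21.6 CPM at 20 months, 10.7, 25.3 and 11.8 at 25 months, then 38.0, 69.2 and 102 at 30 months. In EX, 3 libraries were high, steer 1 at 20 months and steers 1 and 3 at 30 months, and the other 6 did not exceed 37.9 CPM.

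In FC, *bta-miR-206* was higher at 30 than at 25 months in all 3 steers, and the 3 values at 30 months lay above the 3 at 25 months. The same held for *bta-miR-208b*, and for 20.7% of the 358 miRNAs tested in FC. The mean of *bta-miR-206* in FC was 69.8 ± 32.04 CPM at 30 months, 15.9 ± 8.13 at 25 months, then 33.2 ± 31.02 at 20 months (SD, n = 3 each), and the 20 months values overlapped both of the other ages. The log2 fold change from 25 to 30 months was 2.01 (SE 0.75, FDR = 0.0845), short of the threshold. It was the member nearest to a call between ages in FC, with an unadjusted p of 0.0257. Over 21 alternatives the FDR ranged from 0.02 to 0.336 and the log2 fold change from 1.50 to 2.78. It was called in 5 of them: the likelihood ratio test of edgeR (FDR = 0.0357), DESeq2 (FDR = 0.02), no filter on low values (FDR = 0.0209), without steer 2 (FDR = 0.0254) and without the FC library of steer 1 at 20 months (FDR = 0.0465). These fits called 22.1%, 22.3%, 9.18%, 15.1% and 8.66% of all miRNAs tested.

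The level of *bta-miR-206* was set beside that of *bta-miR-1*, which shares its seed. In FC at 30 months, *bta-miR-206* had 0.942 to 1.195 times the CPM of *bta-miR-1*, against 0.371 to 0.638 times at 25 months. At 20 months the ratio in FC spanned 0.199 to 1.70 and covered both. In EX the ages overlapped, with 0.376 to 1.64 at 25 months and 0.936 to 1.48 in 2 libraries at 30 months, while steer 2 at 30 months had 48 counts of *bta-miR-1* and 0 of *bta-miR-206*. The highest EX ratio, 4.10, was that of steer 1 at 20 months. A ratio within a library is not changed by the scaling of that library.

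*bta-miR-208a*, from the intron of the heart alpha myosin gene, was near or under the floor in most libraries. In EX it had 8.28 CPM in steer 1 at 20 months, from 17 counts (95% Wilson interval 5.17 to 13.3 CPM), and 0 in the other 8 libraries. Its FC values were 4.59 CPM in the same plasma sample, from 55.5 counts (interval 3.57 to 6.01 CPM). The other FC libraries with a count were those of steers 2 and 3 at 20 months (0.554 and 0.536 CPM, 4 and 5 counts) and of steer 3 at 25 months (0.904 CPM, 10 counts). It was 0 in all 3 FC libraries at 30 months, where the floor of 3 counts stands for 0.616 to 0.83 CPM and low counts of any miRNA were fewer than at the younger ages. *bta-miR-208b* was 9.10 to 23.2 times as abundant in the 4 FC libraries with both and 26.6 times in the EX library.

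*bta-miR-208b*, from the heart and slow muscle myosin gene, had 220, 3.96 and 14.3 CPM in EX of steers 1, 2 and 3 at 20 months, 0, 0.544 and 12.7 at 25 months, then 40.7, 0 and 14.8 at 30 months. In FC, there were 103, 5.68 and 12.4 CPM at 20 months, 10.8, 11.1 and 8.22 at 25 months, then 33.9, 14.4 and 30.5 at 30 months. Steer 1 at 20 months was the highest library in both fractions, 5.41-fold above the next in EX and 3.05-fold in FC. Without that plasma sample, the mean at 20 months was 9.13 CPM (n = 2) in place of 79.5 CPM (n = 3) in EX, and 9.05 in place of 40.5 CPM in FC. The FC values were higher at 30 than at 25 months in all 3 steers, while the log2 fold change was 1.06 (SE 0.76, FDR = 0.327) and did not pass.

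*bta-miR-499*, from the intron of MYH7B and typical of slow muscle and heart, had 183, 7.92 and 65.6 CPM in EX of steers 1, 2 and 3 at 20 months, 23.99, 44.1 and 45.5 at 25 months, then 51.3, 0 and 42.5 at 30 months. In FC it had 153, 50.8 and 113 CPM at 20 months, 65.1, 76.0 and 64.4 at 25 months, then 85.0, 92.1 and 74.4 at 30 months. The FC values were the most even of the members at 25 and 30 months, where the lowest of 6 was 64.4 and the highest 92.1 CPM, and the spread was widest at 20 months. Steer 1 at 20 months was highest in both fractions.

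**Figure D2:**
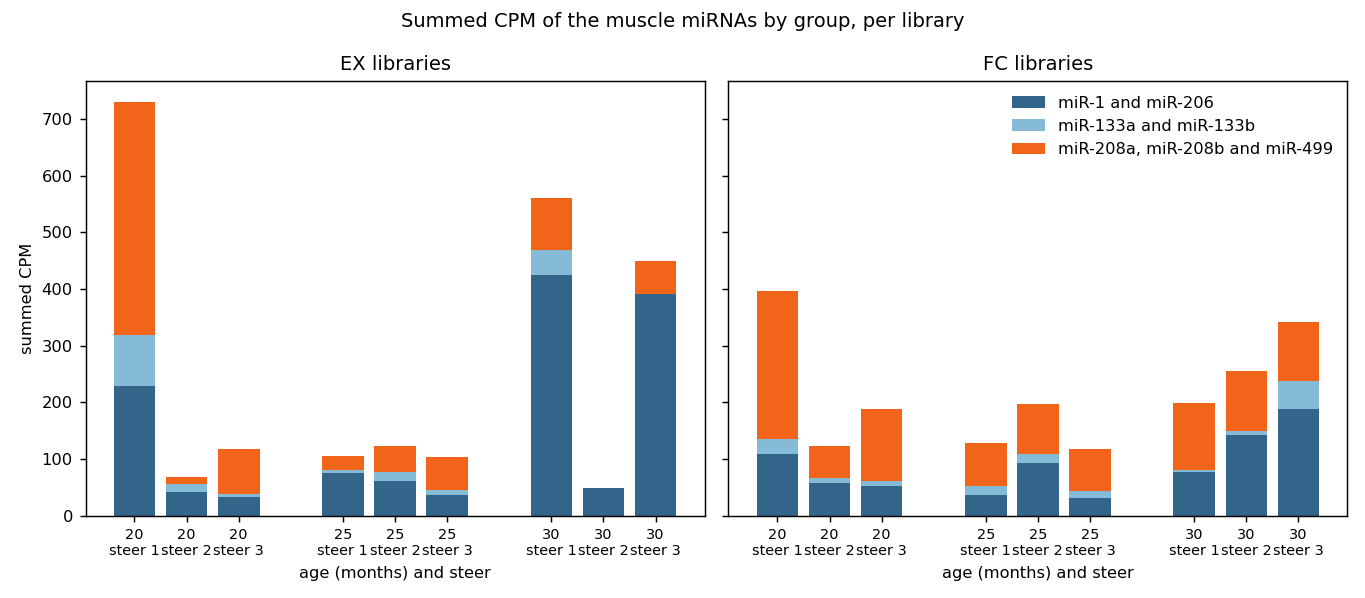
Summed CPM of the muscle miRNAs in each EX (left) and FC (right) library, stacked by family, with bars grouped by age in months and steer. The bar of steer 1 at 20 months is the tallest in both panels, at 730 CPM (EX) and 397 CPM (FC). Its largest part is the group of *bta-miR-208a*, *bta-miR-208b* and *bta-miR-499*.

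Added over the 7 members, the plasma sample of steer 1 at 20 months had the highest level in both fractions: 730 CPM in EX, against 48.4 to 561 in the other 8 libraries, and 397 CPM in FC, against 117 to 341.8. It was also first by the mean of log2(CPM + 1) over the members. The group of *bta-miR-208a*, *bta-miR-208b* and *bta-miR-499* gave 411 of the 730 CPM in EX and 261 of the 397 CPM in FC. In EX of steers 1 and 3 at 30 months, with sums of 561 and 449 CPM, *bta-miR-1* and *bta-miR-206* gave 424.2 and 391.6 CPM, and the slow muscle and heart group 92.0 and 57.3 CPM. In FC of steer 3 at 30 months, the second library with 341.8 CPM, *bta-miR-1* and *bta-miR-206* gave 188 CPM and the slow muscle and heart group 105 CPM. The share of the slow muscle and heart group in steer 1 at 20 months, 56.3% in EX and 65.7% in FC, was not particular to it: it was 68.1% and 67.1% in steer 3 at 20 months, and 56.2% and 62.8% in steer 3 at 25 months.

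This plasma sample was singled out after its values had been seen, so what follows is a description with no test. Relative to the median of the other 8 libraries of the fraction, on the scale of log2(CPM + 1), *bta-miR-208b* was higher in it by 4.57 in EX and 3.03 in FC, *bta-miR-206* by 3.09 and 1.50, *bta-miR-133a* by 3.33 and 1.02, and *bta-miR-499* by 2.05 and 1.01. The value of *bta-miR-1* was near the median, with 0.12 in EX and -0.11 in FC. Of the 330 miRNAs tested in both fractions, 11 (3.33%) were above a difference of 1 in both, and 4 of these were members. The medians over all 330 were 0.32 in EX and 0.16 in FC. With TMM factors, 6 of these 11 miRNAs and no others (1.82%) were above 1 in both, among them *bta-miR-206* and *bta-miR-208b* but not *bta-miR-133a* and *bta-miR-499*. In the same count for each of the other 8 plasma samples by CPM, 1 to 20 miRNAs were above 1 in both fractions, with 2 members (*bta-miR-1* and *bta-miR-206*) for steer 3 at 30 months, 1 (*bta-miR-208b*) for steer 1 at 30 months, and none for the other 6.

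**Figure D3:**
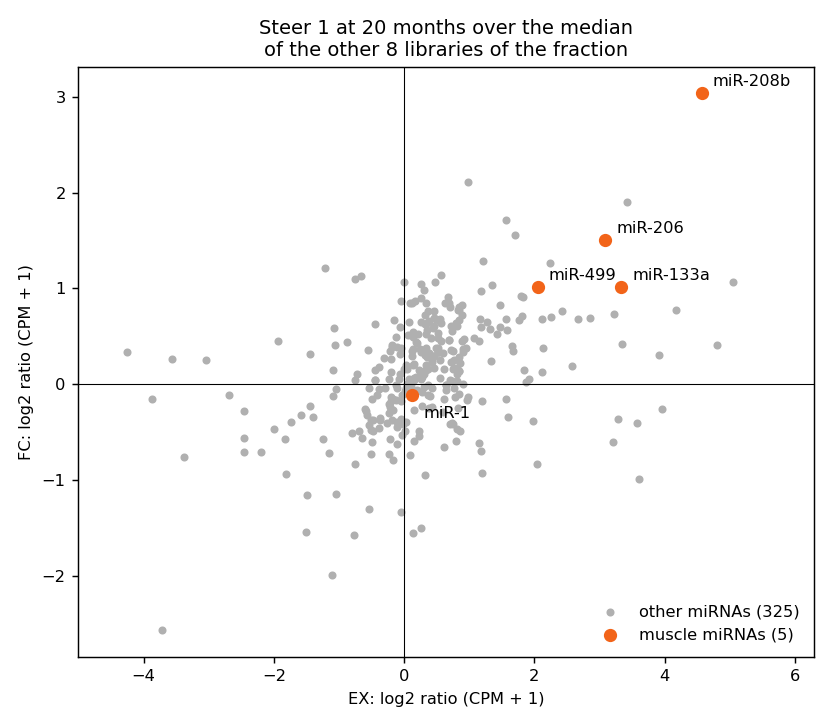
Log2 ratio of CPM + 1 in steer 1 at 20 months to the median of the other 8 libraries, in EX (horizontal axis) and FC (vertical axis), for the 330 miRNAs tested in both fractions, with the 5 muscle miRNAs among them in orange. *bta-miR-208b* lies at 4.57 and 3.03, whereas *bta-miR-1* lies near 0 on both axes.

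Markers of other cell types were read in the same plasma sample. The summed CPM of the red cell list (*bta-miR-451*, *bta-miR-144*, *bta-miR-486* and *bta-miR-363*, all 4 with counts) was the lowest of 9 libraries in both fractions, 25467 in EX against 28645 to 92309 and 10799 in FC against 19068 to 46920. In EX, only *bta-miR-486* was itself the lowest of 9 (12101 CPM), and *bta-miR-451*, *bta-miR-144* and *bta-miR-363* were not. In FC, all but *bta-miR-363* were. *bta-miR-486* is also in the muscle development list read below. The platelet and vessel wall list (*bta-miR-126-3p*, *bta-miR-126-5p* and *bta-miR-223*, all 3 with counts) was the highest of 9 in EX, 63492 against 20998 to 57595, and the second in FC with 73034. Most of this sum was *bta-miR-223*, with 50282 CPM in EX and 62126 in FC. *bta-miR-126-3p* (8996 and 5511 CPM) and *bta-miR-126-5p* (4214 and 5398 CPM) lay inside the range of the other libraries in both fractions. The lymphocyte list (*bta-miR-150* and *bta-miR-342*) and the hepatocyte list (*bta-miR-122* and *bta-miR-885*) lay inside the range of the other libraries in both fractions, and no marker of these was at 0 in it. The part of other cells in the myomiR values was not tested. In plasma, more RNA per cell and RNA from more cells cannot be told apart.

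The first comparison asked which miRNAs changed as fattening went on, from 25 to 30 months. In EX, 49 of 345 miRNAs (14.2%) were called, and 0 of the 5 members tested, with 0 of 5 at an unadjusted p under 0.05. DESeq2 and the likelihood ratio test also called 0 members, with 24.6% and 26.1% of all called. The log2 fold changes of the members had a median of 0.42, against -0.51 over all 345. Besides *bta-miR-1*, they were -2.69 for *bta-miR-133a* (SE 2.50, FDR = 0.541), 1.19 for *bta-miR-206* (SE 1.65, FDR = 0.715), 0.42 for *bta-miR-208b* (SE 2.01, FDR = 0.916) and -2.17 for *bta-miR-499* (SE 1.74, FDR = 0.454). The errors, from 1.00 to 2.50 on the log2 scale, were large, and 1 of the 3 libraries at 30 months had no count for 4 of these 5 members. For the 5 members, *bta-miR-1* included, the estimates therefore leave room for no change as well as for changes of several fold. The value of *bta-miR-1* was above 0 in all 21 alternatives (0.86 to 2.57), but these reuse the libraries of the same 3 steers. Some of these values changed when the EX libraries of steer 2 were left out at all ages. Without this steer the log2 fold change of *bta-miR-206* was 2.38 and that of *bta-miR-499* -0.18, in a fit that called 0 of the 345 miRNAs. The EX library of steer 2 at 30 months was the shallowest of all (991354 counts). Its summed hepatocyte list was the highest of the 9 EX libraries (108600 CPM, against 12268 to 100477), from *bta-miR-122* with *bta-miR-885* at 0. Its lymphocyte list was the lowest (13723 CPM, against 22299 to 324692). The part of either list in these values was not tested. Without the EX library of steer 3 at 30 months, in turn, the sign for *bta-miR-206* changed (-0.58). For *bta-miR-133a*, the value was 0.46 without the steer block, -6.99 without the EX library of steer 1 at 30 months, the only one of that age with a count, and -0.79 without steer 3. Summed with *bta-miR-133b* it was -3.23 (SE 2.48, FDR = 0.438).

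In FC, 56 of 358 miRNAs (15.6%) were called between 25 and 30 months, and 0 of the 5 members, with 1 of 5 (*bta-miR-206*) at an unadjusted p under 0.05. The likelihood ratio test and DESeq2 each called 1 member, *bta-miR-206*, and 22.1% and 22.3% of all 358. The log2 fold changes had a median of 0.86, against -0.20 over all 358. Beside those of *bta-miR-206* and *bta-miR-208b*, they were 0.86 for *bta-miR-1* (SE 0.44, FDR = 0.191, with 0.35 without steer 3 and 1.33 without steer 2), 0.16 for *bta-miR-499* (SE 0.37, FDR = 0.765) and -0.18 for *bta-miR-133a* (SE 0.94, FDR = 0.895). The sign for *bta-miR-133a* turned without the steer block (0.31). Where *bta-miR-133a* and *bta-miR-133b* were summed, the value in FC was -0.18 (FDR = 0.895). Over these ages, the summed lymphocyte list moved as well. In FC it held 80690 to 230827 CPM at 25 months and 14651 to 26926 CPM at 30 months. In EX it held 113415 to 324692 CPM, then 13723 to 27464 CPM. The hepatocyte list was higher at 30 than at 25 months in EX of all 3 steers, with 35472, 108600 and 100477 CPM in steers 1, 2 and 3 against 20306, 73054 and 12268 CPM. In FC it was 97366 against 18960 CPM in steer 3, but slightly lower at 30 months in steers 1 and 2. Both markers of the lymphocyte list had counts in every library. The hepatocyte sums were nearly all *bta-miR-122*. In EX, *bta-miR-885* went from 27.5 and 75.1 CPM to 0 in steers 1 and 2, and from 49.6 to 70.2 in steer 3. In FC it had 0, 0 and 0.526 CPM at 30 months, against 21.2, 19.8 and 25.9 at 25 months. The part of either list in the CPM of the members was not tested.

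**Figure D4:**
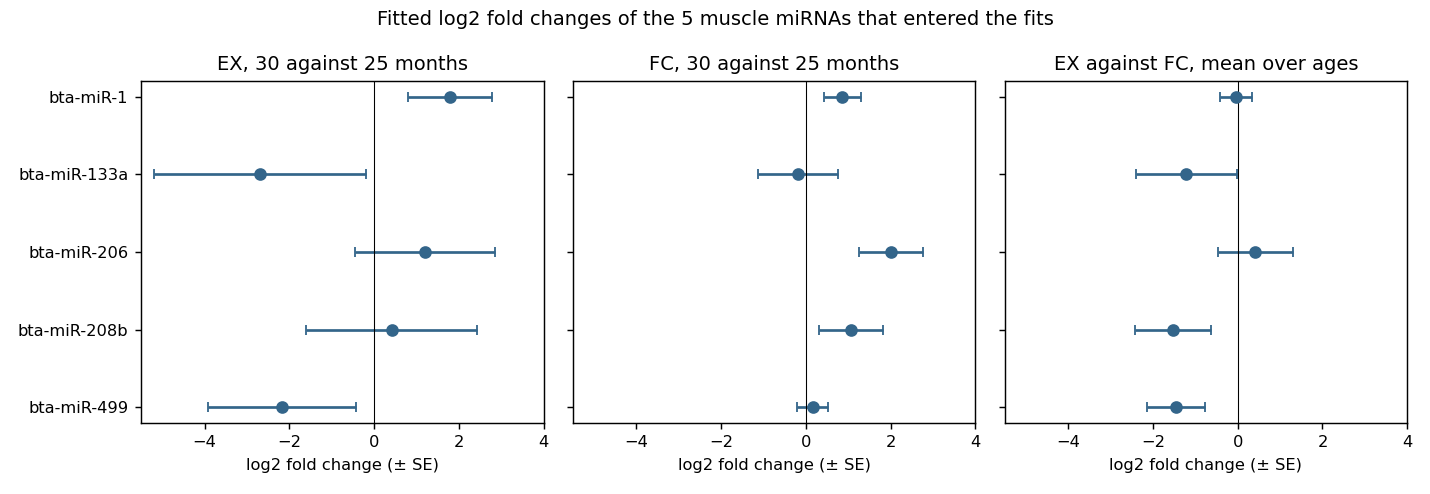
Log2 fold changes of the 5 tested muscle miRNAs (points) with standard errors (bars), for 30 against 25 months in EX and in FC and for EX against FC as a mean over ages; none passed the threshold. The bars are longest in EX, where *bta-miR-133a* has -2.69 with a standard error of 2.50, and the point farthest above 0 in FC is *bta-miR-206* at 2.01.

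Between 20 and 30 months, which shares its 30 months libraries with the comparison above, 46 of 345 miRNAs (13.3%) were called in EX and 25 of 358 (6.98%) in FC, and 0 of 5 members in either, with 0 of 5 at an unadjusted p under 0.05 in each. The log2 fold changes of the members ran from -2.68 to 2.06 in EX and from -0.24 to 1.21 in FC, and the lowest FDR was 0.21 and 0.289. Without the FC library of steer 1 at 20 months, the value of *bta-miR-206* in FC was 2.40 in place of 1.21 (FDR = 0.112) and that of *bta-miR-208b* 1.38 in place of 0.09. In EX, DESeq2 called *bta-miR-1*, as given above, and in FC it called 0 members and 16.8% of the 309 miRNAs it gave an FDR. The likelihood ratio test called 0 members in both fractions, with 24.1% of all called in EX and 14.8% in FC. The 3 values at 30 months lay above all at 20 months for 14.8% of the miRNAs tested in FC, and for 0 of 5 members.

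Between 20 and 25 months few miRNAs differed. In EX, 1 of 345 (0.29%) was called, and in FC 0 of 358 (0%), where 13 had an unadjusted p under 0.05 and DESeq2 and the likelihood ratio test also called 0. In EX, these tests called 0.87% and 0.29%. Of the members, 0 of 5 were called in either fraction by any of the 3 tests, with 0 of 5 at an unadjusted p under 0.05. The log2 fold changes ran from -2.96 (*bta-miR-208b*) to 0.38 in EX and from -0.97 (*bta-miR-208b*) to 0.24 in FC. Without the FC library of steer 1 at 20 months, the FC values of *bta-miR-208b* and *bta-miR-206* turned from -0.97 to 0.23 and from -0.80 to 0.46. By CPM, all 3 steers had less *bta-miR-208b* at 25 than at 20 months in EX, where 2 of the 3 values at 25 months were under 3 counts. With TMM factors, steer 3 turned, with 15.3 CPM at 20 months and 17.1 at 25 months.

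The next comparison set EX against FC within each plasma sample, for the question of how the miRNAs are divided between vesicles and the rest of plasma. Over the 3 ages, 30 of 330 miRNAs (9.09%) were called, and 0 of 5 members, with 0 of 5 at an unadjusted p under 0.05. The log2 fold changes (EX over FC) of the members had a median of -1.21, against -0.43 over all 330. *bta-miR-499* was nearest to a call. It was higher in FC in 8 of 9 plasma samples, all but steer 1 at 20 months, with a log2 fold change (EX over FC) of -1.45 (SE 0.68, FDR = 0.137). The likelihood ratio test (FDR = 0.0477) and DESeq2 (FDR = 0.0338) called it, in fits that called 18.8% and 16.1% of all 330, and the FDR ranged from 0.0338 to 0.271 over 13 alternatives. Without steer 2, whose EX library at 30 months had no count, the value was -0.76.

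No difference between the fractions passed for the other members, and their errors left room for sizeable ones. *bta-miR-208b* had a log2 fold change as far from 0 as that of *bta-miR-499* (-1.52, SE 0.90, FDR = 0.227), but was higher in FC in only 5 of 9 plasma samples. DESeq2 gave -1.54 (FDR = 0.0739), and without steer 2 the value was -0.61. *bta-miR-133a* was higher in FC in 6 of 9 (-1.21, SE 1.19, FDR = 0.468), with 0.32 without steer 3 and 0.053 without the block. *bta-miR-1* was higher in EX in 4 of 9 plasma samples, with a log2 fold change of -0.05 (SE 0.37, FDR = 0.933), and its sign turned with the scaling (0.06 with library totals alone). *bta-miR-206* was higher in EX in 6 of 9 (0.42, SE 0.88, FDR = 0.76), with -0.72 without steer 1. Of the members not tested, *bta-miR-133b* was higher in FC in 6 of 9 and *bta-miR-208a* in 3 of 9, with 5 at 0 in both fractions. In steer 1 at 20 months all 7 members were higher in EX.

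Whether the change from 25 to 30 months differed between the fractions was tested by an interaction term. It was called for 24 of 330 miRNAs (7.27%) and for 0 of 5 members, with 0 of 5 at an unadjusted p under 0.05, and by DESeq2 and the likelihood ratio test also for 0 members, with 12.4% and 14.5% of all called. The members' values ran from -3.12 (*bta-miR-133a*, SE 3.20) to 1.04 (*bta-miR-208b*, SE 2.35), with FDR of 0.556 or above. Their median was -1.07, against -0.61 over all 330. With errors from 0.92 to 3.20 on the log2 scale, the estimates leave room for large differences between the fractions in either direction.

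Another list of 20 miRNAs known for roles in muscle development or atrophy, but made in many tissues, was read for comparison. Of these, 19 were tested in EX and 20 in FC. From 25 to 30 months, 4 fell in EX (*bta-miR-26a*, *bta-miR-29b*, *bta-miR-181a* and *bta-miR-155*) and 0 rose, where 14.2% of all miRNAs tested were called. These calls depend on all steers: the EX fit called 0 miRNAs in all without steer 2, 1 without steer 3 and 18 without steer 1. In FC, 6 fell (*bta-miR-26a*, *bta-miR-181a*, *bta-miR-181b*, *bta-miR-222*, *bta-miR-424-5p* and *bta-miR-155*) and 1 rose (*bta-miR-29c*), against 15.6% of all. The FC fit called 1 miRNA in all without steer 1, 54 without steer 2 and 1 without steer 3. The medians of the list were -0.04 in EX, against -0.51 over all tested, and -0.52 in FC, against -0.20. *bta-miR-181a*, known from lymphocytes as well as from muscle differentiation, fell by 2.37 on the log2 scale in EX (SE 0.41, FDR = 0.00794) and by 2.01 in FC (SE 0.32, FDR = 0.00902). *bta-miR-29c*, which acts on collagen genes, was 15499 ± 2191 CPM in FC at 30 months against 6889 ± 2603 at 25 months (SD, n = 3), a log2 fold change of 1.11 (FDR = 0.0179). *bta-miR-155*, an immune cell miRNA that also acts on muscle differentiation, fell by 1.67 in EX (FDR = 0.0413) and by 1.33 in FC (FDR = 0.042).

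From 20 to 30 months, the list had 1 fall in EX (*bta-miR-181a*, with 13.3% of all miRNAs called), and in FC 3 falls (*bta-miR-181a*, *bta-miR-181b* and *bta-miR-222*) and 1 rise (*bta-miR-29c*), with 6.98% of all called. From 20 to 25 months 0 were called in either fraction. Between the fractions, *bta-miR-181b* was higher in EX by 3.95 on the log2 scale (SE 0.45, FDR = 0.000162) as a mean over ages, in a comparison with 9.09% of all called. Its levels were 1767 ± 2558 CPM in EX against 266 ± 34.4 in FC at 20 months, 5563 ± 2323 against 269.5 ± 28.6 at 25 months, then 10338 ± 3485 against 99.6 ± 13.1 at 30 months (SD, n = 3 each). Of the 19 tested in both fractions, 0 changed differently between 25 and 30 months by the call. *bta-miR-93*, the control of the study's qPCR, had 8485 to 26671 CPM in EX and 10623 to 22640 in FC, and was not called in any comparison.

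Last, the miRNAs outside the set whose pattern over the 9 FC libraries was most like that of each member were found by the root mean square (RMS) difference of log2(CPM + 1), centred on each miRNA, among the 358 tested. For *bta-miR-499* they were *bta-miR-744* (0.18) and *bta-miR-296-3p* (0.23), against a median over all of 0.73. For *bta-miR-1* they were *bta-miR-30a-5p* (0.29) and *bta-miR-148a* (0.37), with a median of 0.89. For *bta-miR-206* they were *bta-miR-760-3p* (0.57) and *bta-miR-6529a* (0.65), with a median of 1.29, and for *bta-miR-208b* *bta-miR-2285p* (0.66) and *bta-miR-326* (0.70), with a median of 1.24. For *bta-miR-133a* they were candidate 12 of the study (0.58), a miRNA not in miRBase, and *bta-let-7e* (0.66), with a median of 1.10. No member was the nearest miRNA to another: *bta-miR-206* was in place 16 for *bta-miR-208b* and *bta-miR-208b* in place 20 for *bta-miR-206* (0.81). *bta-miR-1* and *bta-miR-499* differed by 0.79, in places 132 and 212. The points are libraries of the same 3 steers and share their depth and scaling, so likeness is a description only.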

How the data were processed

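Small RNA was sequenced from EX and FC fractions of 9 plasma samples. The authors trimmed the reads (cutadapt 5.0, Trimmomatic 0.39), mapped them to a Japanese Black genome built from ARS-UCD 1.2 and assigned them to mature miRNAs of miRBase with miRDeep2. They deposited estimated counts per miRNA, in which shared reads are divided among miRNAs, and CPM values made with edgeR. The CPM table was used for levels (its row of totals was left out) and the counts, rounded to whole numbers, for tests. In 4 FC libraries 77 to 101 counts, none of a member, did not match the CPM table (relative tolerance 0.001 or 0.02 counts) and were recomputed from it.

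miRNAs above 5 CPM in 3 or more libraries of a fraction were tested with the quasi-likelihood F test of edgeR 4.0.16 (R 4.3.3, limma 3.58.1) after TMM normalization, with age and steer in the model, or, for EX against FC, with plasma sample and fraction within age. P-values were adjusted by Benjamini and Hochberg over all miRNAs tested in a contrast. DESeq2 1.42.0 was an alternative. The scripts were tested on simulated data. Tables used Python 3.11.15, numpy 2.4.6 and pandas 2.3.3, and matplotlib 3.10.9 drew the figures.

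The steer numbers mark the same 3 animals at each age, per the study's sample table. Deviations from group means correlated by -0.05 to 0.09 (mean 0.02) within a steer in EX and 0.01 to 0.24 (mean 0.12) in FC. Between the fractions of a plasma sample the correlation was -0.01 to 0.47 (mean 0.23). At 30 months it was near 0, with 0.039, -0.010 and 0.036 in steers 1, 2 and 3. All 18 pairs of libraries of a group differed by far more than counting error (chi-square of at least 196 for each degree of freedom). The p-values rest on 3 steers.

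The members are given in full, the muscle development list by counts and its called miRNAs, and 2 most alike miRNAs per member tested in FC. The members and lists were chosen with earlier results of these data known. Sequences are those of the count table. The reads, qPCR data and carcass records were not analysed here.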

Additional observations from a re-analysis of the deposited data

How the results depend on the processing

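For the 8 contrasts, 152 alternative fits were read for calls of members: 8 called 1 member and the rest called 0, as in the report. From 25 to 30 months in FC, *bta-miR-206* was called with no filter on low values (1 member), by the likelihood ratio test (1) and by DESeq2 (1), and with each steer or library left out in turn 0 to 1 members were called. For EX against FC over ages, the likelihood ratio test and DESeq2 called 1 member each (*bta-miR-499*), and DESeq2 called 1 in EX from 20 to 30 months (*bta-miR-1*). Without the replicate block, 0 members were called in all 8 contrasts, and pairing by steer changed no call of a member. For 25 to 30 months in each fraction, EX against FC, and *bta-miR-1* in EX from 20 to 30 months, 290 log2 fold changes of single members were read under alternatives, of which 24 turned in sign, none of them called. In the other contrasts signs turned as well, with, for example, -1.84 to 0.46 for *bta-miR-206* in FC from 20 to 25 months and -0.58 to 1.38 for *bta-miR-208b* in FC from 20 to 30 months. In the fit without the replicate block, *bta-miR-133a* turned to 0.46 (EX, 25 to 30 months), 0.31 (FC) and 0.053 (EX against FC). For *bta-miR-1* in EX against FC, the sign turned with DESeq2 size factors (0.056), library totals alone (0.057), no filter (0.0064), DESeq2 (0.060) and counts as deposited (0.0097). Leaving out steers or libraries gave, from 25 to 30 months, -1.59 to 0.63 for *bta-miR-133a* in FC, -0.58 to 2.38 for *bta-miR-206* in EX, -0.80 to 3.14 for *bta-miR-208b* in EX and -0.094 to 0.36 for *bta-miR-499* in FC. For EX against FC it gave -0.44 to 0.34 for *bta-miR-1*, -3.31 to 0.32 for *bta-miR-133a* and -0.72 to 1.17 for *bta-miR-206*. The causes were not tested. A floor of 10 in place of 3 counts put 24 EX and 9 FC values under it. With TMM factors, all 42 group means of the members moved by less than 1 SD, and 0 members in EX were free of overlap between 30 months and the younger ages. Fits without both libraries of steer 1 at 20 months, and the count of overlaps with TMM factors, were chosen after seeing the data.

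Counts over all miRNAs depended more on the processing. From 25 to 30 months they were 49 in EX, with 37 to 90 under other settings and 0 to 46 with steers or libraries left out, and 56 in FC, with 21 (counts as deposited) to 80 and 1 to 55. From 20 to 30 months they were 46 in EX (28 to 83, and 0 to 35) and 25 in FC (2 to 53, and 1 to 38). For EX against FC they were 30 (27 to 62, and 14 to 26), and for the change between fractions 24 (6 to 48, and 0 to 15). From 20 to 25 months they were 1 in EX (1 to 3, and 0 to 3) and 0 in FC (0 to 0, and 0 to 1). Library totals alone in place of TMM moved the median log2 fold change of all miRNAs tested from -0.51 to -0.04 in EX from 25 to 30 months and from -0.64 to -0.30 in EX from 20 to 30 months, and in FC from 25 to 30 months from -0.20 to -0.083.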
